A study of Mus musculus with 157 samples.

Results

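Tifab and 7 genes of Toll-like receptor adaptor signalling were followed in cultured mouse bone marrow-derived macrophages given mineral particles. The genes were Tifab, Tifa, Traf6, Irak1, Irak2, Irak3, Irak4 and Myd88, 8 of the 24940 genes in each of 8 deposited expression tables, and each was found once in every table by its symbol. Tifab was chosen by its TPM in the time course, where it was low after 2 h with monosodium urate crystals (MSUc), so its values there are given as a description with no test. The other 7 were taken for their place in the pathway, and all 8 were chosen with earlier results of these data known.

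Toll-like receptors and the IL-1 receptor family signal through the adaptor MyD88, which assembles a complex with the kinases IRAK4, IRAK1 and IRAK2. IRAK3, also called IRAK-M, restrains that complex in macrophages. The complex activates TRAF6, a ubiquitin ligase that turns on the TAK1 and IKK kinases and so NF-kappaB. TIFA is a separate route to TRAF6: once phosphorylated downstream of the kinase ALPK1, a sensor of bacterial heptose sugars, it oligomerizes and recruits TRAF6. TIFAB is a TIFA-related protein that is known to restrain TIFA and TRAF6.

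RNA from 115 libraries in 45 groups was used, with 2 libraries a group in the time course and the Bhlhe experiment, 2 each for silica and alum in the comparison of particles, 2 for TfebWT in PBS and SGC0946 in PBS, and 3 in every other group. In the time course, C57BL/6 macrophages received MSUc or phosphate-buffered saline (PBS) for 10 min, 30 min, 1 h, 2 h or 5 h. A second experiment set MSUc, calcium pyrophosphate dihydrate (CPPD), silica and alum (aluminum hydroxide) against PBS. Another gave MSUc, CPPD, silica or PBS to cells labelled Tfe3KO or Tfe3WT. The others gave MSUc or PBS to TfebTg and TfebWT cells, to Bhlhe40-/-, Bhlhe41-/- and WT cells, to Ampka1KO and congenic WT cells, to cells grown with the DOT1L inhibitor SGC0946 at 1 uM from day 0 or its vehicle, and to cells with metformin or its vehicle. Particles were used at 250 ug/mL. Cells grew in DMEM with 16 ng/mL M-CSF, except the Ampka1 cells and their controls, which came from mice 7 to 8 weeks old and grew in RPMI with 5 ng/mL M-CSF. The dose of metformin, the exposure times outside the time course, the promoter of the Tfeb transgene and the way Tfe3KO was made are not given in the sources used here. Nor is it stated whether libraries of a group came from separate animals, so p-values measure only the spread between libraries, which may be technical. In Tfe3KO, Bhlhe40-/- and Bhlhe WT groups the Xist levels given below differ by sex between libraries, so those groups held more than 1 animal.

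Libraries held 2.12 to 22.1 M reads, with a median of 10.1 M. Levels are in TPM, which takes account of gene length and sequencing depth, and each table was normalized separately. All 8 macrophage markers stood at 1 TPM or more in every group, while the 6 dendritic cell, 6 lymphocyte and 6 mast cell markers summed to at most 39.6, 8.87 and 29.3 TPM in any library. The 8 neutrophil and 6 stromal markers reached more, from 1.57 to 1660 TPM and from 1.88 to 3040 TPM, with the top sums in silica cultures of the Tfe3 experiment and in Ampka1KO cultures with MSUc. The altered gene differed as labelled for Bhlhe40, at 6.26 TPM in Bhlhe40-/- and 66.95 TPM in WT cells in PBS, and for Tfeb, at 80.5 TPM in TfebTg and 44.1 TPM in TfebWT cells. Tfe3 averaged 68.3 TPM in the libraries labelled Tfe3KO and 98.4 TPM in Tfe3WT in PBS, but 85.7 TPM and 82.1 TPM with MSUc. Prkaa1, which encodes AMPK alpha 1, averaged 26.02 TPM in the libraries labelled Ampka1KO and 24.5 TPM in Ampka1WT in PBS, and 28.8 TPM and 22.01 TPM with MSUc. Bhlhe41 averaged 48.0 TPM in the libraries labelled Bhlhe41KO and 52.8 TPM in WT in PBS, and 49.9 TPM and 92.5 TPM with MSUc. A TPM over a whole transcript need not show the loss of part of a gene, and these 3 genotypes are used as labelled. In the Tfe3 experiment the 4 Tfe3KO libraries numbered 1 had 57.1 to 115 TPM of Xist, expressed from the inactive X chromosome, and 1.21 to 1.96 TPM of the Y-linked Ddx3y, against 0 to 6.28 TPM and 16.5 to 56.6 TPM in the other 20. In the Bhlhe experiment the 4 Bhlhe40-/- and WT libraries numbered 1 had 46.9 to 66.8 TPM of Xist, against 0.18 to 1.67 TPM in the other 8.

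The promoters are shown because they place the Tifab start site and the only motif matches found among these genes. They are RefSeq sequences on GRCm38.p6, from 250 bases before to 50 bases after the start, which held 11 entries for the 8 genes. The first is Tifab at chr13:56178836-56179135 on the minus strand. The second is a downstream start of Tifa at chr3:127790407-127790706 on the plus strand and the last is Irak3 at chr10:120201548-120201847 on the minus strand. Capitals mark a motif.
Tifab: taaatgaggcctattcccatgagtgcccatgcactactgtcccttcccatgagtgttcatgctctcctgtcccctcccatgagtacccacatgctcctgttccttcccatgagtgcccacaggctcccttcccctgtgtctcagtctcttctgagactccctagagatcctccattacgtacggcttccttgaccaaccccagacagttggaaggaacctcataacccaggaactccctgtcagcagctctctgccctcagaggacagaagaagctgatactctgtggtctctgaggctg
Tifa: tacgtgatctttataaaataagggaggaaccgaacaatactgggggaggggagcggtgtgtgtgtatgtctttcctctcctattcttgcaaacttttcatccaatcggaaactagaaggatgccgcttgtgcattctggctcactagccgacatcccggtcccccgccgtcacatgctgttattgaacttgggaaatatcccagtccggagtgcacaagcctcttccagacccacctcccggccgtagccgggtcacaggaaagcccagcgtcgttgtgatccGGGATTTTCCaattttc
Irak3: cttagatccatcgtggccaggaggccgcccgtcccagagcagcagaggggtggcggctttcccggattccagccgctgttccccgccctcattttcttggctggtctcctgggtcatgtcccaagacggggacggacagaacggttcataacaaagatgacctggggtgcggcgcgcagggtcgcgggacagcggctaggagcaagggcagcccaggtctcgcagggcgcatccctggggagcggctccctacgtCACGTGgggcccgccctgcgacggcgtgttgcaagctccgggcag
The motifs searched on both strands were CACGTG, the core of the site that TFEB, TFE3, BHLHE40 and BHLHE41 bind, TGANTCA, the AP-1 site, and the NF-kappaB consensus. The Tifa entry held 1 NF-kappaB match, GGGATTTTCC, from +33 to +42 of the start. The Irak3 entry held CACGTG from +5 to +10 on the same count. Of 32851 RefSeq promoters of this length 7.15% held CACGTG, 7.81% held TGANTCA and 4.51% held the NF-kappaB consensus. The Tifab window and the other 8 entries held none of the 3 motifs.

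At rest all 8 genes were expressed. Over the 12 groups of control cells in PBS, the group means ranged from 50.2 to 80.6 TPM for Myd88, 45.7 to 77.03 TPM for Tifa and 46.4 to 56.3 TPM for Irak1. Irak2 ranged from 38.5 to 57.9 TPM and Irak4, the kinase at the head of the complex, from 23.6 to 38.5 TPM. Tifab had the widest range, 19.9 to 80.3 TPM, with the top value in Ampka1WT cells, whose culture medium and M-CSF dose also differ. Irak3 ranged from 11.4 to 25.6 TPM and Traf6 from 9.49 to 16.4 TPM, the lowest of the 8 in all 12 groups. These ranges span tables that were normalized separately and experiments that differ in Xist. It had 64.2 to 98.7 TPM in the time course, 45.6 to 104 TPM in the Tfeb experiment and 62.1 to 158 TPM in the SGC0946 experiment. In the metformin experiment it had 34.0 to 74.1 TPM. It reached at most 0.02 TPM in the comparison of particles and 0.015 TPM in the Ampka1 experiment. Sex and experiment cannot be told apart in levels compared between these experiments.

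In the time course Tifab stood near its PBS level for 30 min and was low from 2 h on. Tifab had 25.2 and 23.3 TPM after 10 min of MSUc, against 21.8 and 18.1 TPM in PBS, and 24.1 and 19.9 TPM after 30 min, against 21.5 and 26.04 TPM in PBS. After 1 h it had 13.9 and 14.8 TPM in MSUc, against 19.4 and 25.5 TPM in PBS. The MSUc libraries lay below both PBS libraries from 1 h on. After 2 h it had 2.34 and 2.16 TPM in MSUc, against 20.1 and 26.7 TPM in PBS, and after 5 h 3.90 and 2.22 TPM, against 21.4 and 29.5 TPM. The PBS mean exceeded the MSUc mean by 10.4 times at 2 h and 8.32 times at 5 h. Fewer cells and less RNA per cell cannot be told apart in such bulk samples.

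Of the other 7 genes none was called at 10 min, 30 min or 1 h in limma at a Benjamini-Hochberg adjusted p under 0.05, when 0.0567%, 0.68% and 3.28% of 12350 genes were called. At an unadjusted p under 0.05 there were 0, 0 and 2 of 7, the 2 at 1 h being Traf6 and Irak2, and voom on recovered reads called 0. At 2 h 2 genes rose and 4 fell, against a background of 11.2% of all genes called higher and 22.3% called lower. The same numbers rose and fell at 5 h, against 16.4% and 32.9%. With median-of-ratios scaling that background was 16.5% higher and 12.1% lower at 2 h, and 25.1% and 20.4% at 5 h.

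Tifa, the partner that TIFAB restrains, had 39.95 and 39.3 TPM after 2 h of MSUc, against 63.8 and 76.8 TPM in PBS, and 29.2 and 25.3 TPM after 5 h, against 63.8 and 90.2 TPM. Its MSUc libraries lay below both PBS libraries at both times. It fell by 0.80 on the log2 scale at 2 h (SE 0.18, limma adjusted p = 0.00412) and by 1.45 at 5 h (SE 0.18, adjusted p = 2.73e-05). Fold changes here and below are on log2(TPM + 1), which understates changes of low levels.

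Irak4 had 17.1 and 17.7 TPM after 2 h of MSUc, against 27.4 and 26.1 TPM in PBS, and 12.2 and 13.0 TPM after 5 h, against 29.3 and 32.7 TPM. It fell by 0.60 (SE 0.09) at 2 h and by 1.23 (SE 0.09, limma adjusted p = 2.47e-07) at 5 h, with no overlap between MSUc and PBS. Myd88 had 49.6 and 51.5 TPM after 5 h of MSUc, against 79.1 and 74.2 TPM in PBS, and fell by 0.59 (SE 0.08, limma adjusted p = 6.7e-05). At 2 h its fall by 0.26 (SE 0.08, limma adjusted p = 0.0283) missed the threshold with median-of-ratios scaling, at -0.08, and without replicate 1 of PBS or of MSUc, at -0.20 and -0.19. Irak3 had 14.9 and 14.7 TPM after 2 h of MSUc, against 21.9 and 20.4 TPM in PBS, and fell by 0.49 (SE 0.12). The Irak3 call at 2 h was lost without replicate 1 of PBS, at -0.44, and at 5 h the fall by 0.45 was lost without replicate 2 of PBS, at -0.32, without replicate 2 of MSUc, at -0.40, and with median-of-ratios scaling, at -0.20.

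Irak2 and Traf6 moved the other way. Irak2 had 74.2 and 84.7 TPM after 2 h of MSUc, against 40.3 and 42.7 TPM in PBS, and 77.35 and 100.7 TPM after 5 h, against 41.05 and 39.7 TPM. It rose by 0.92 at 2 h and 1.11 at 5 h on the log2 scale (SE 0.13 each, limma adjusted p = 0.000162 and 1.52e-05). Traf6 had 23.7 and 24.9 TPM after 5 h of MSUc, against 15.2 and 13.8 TPM in PBS, and rose by 0.71 (SE 0.09, limma adjusted p = 3.61e-05). Irak1 differed by -0.01 (SE 0.09) at 2 h and by -0.23 (SE 0.09) at 5 h, where its limma adjusted p was 0.053, and the 5 h difference passed without replicate 1 of MSUc, at -0.32. Its limma adjusted p over the alternatives ran from 0.0309 to 0.966.

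**Figure D1:**
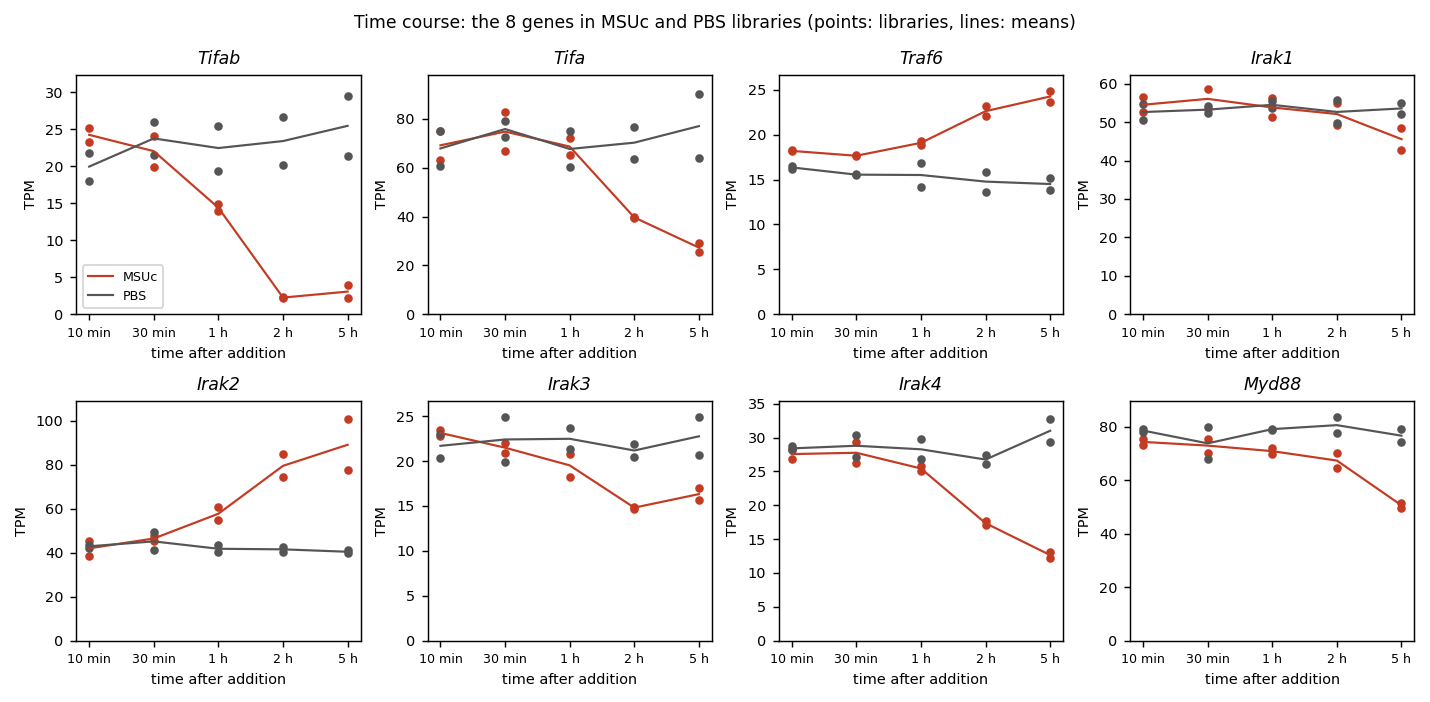
Level of each of the 8 genes in TPM, on an axis from 0, against time after addition, spaced evenly, for MSUc (red) and PBS (grey), with 1 point per library and lines through the 2-library means. Tifab, Tifa, Irak4, Irak3 and Myd88 go down in MSUc by 5 h, Traf6 and Irak2 go up, and the PBS lines stay nearly level.

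Tifab was chosen by its values in the time course, and outside it Tifab was tested in other libraries. The choice was made with earlier results of these data known, so these tests may not be independent of it. MSUc was set against PBS once per experiment, in the control cells (all at 250 ug/mL), with the 5 h time point standing for the time course. Tifab fell in all 7 contrasts outside the time course. Its PBS group mean exceeded its MSUc mean by 8.46 times in the comparison of 4 particles, 9.79 times in Tfe3WT, 14.1 times in TfebWT and 16.2 times in Bhlhe WT cells. The ratio was 14.7 in Ampka1WT, 19.2 in the vehicle cells of the SGC0946 experiment and 32.2 in the vehicle cells of the metformin experiment. The log2 change ranged from -3.82 to -2.77 over these 7 contrasts. Of the 11242 genes tested in all 7, 0 had a lower mean change than Tifab, which averaged -3.39. Given how Tifab was chosen, this rank is a description.

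The lowest Tifab levels rest on few reads. Vehicle cells of the metformin experiment had 0.974, 0.602 and 0.606 TPM with MSUc, which is 21, 12 and 8 reads, against 24.7, 25.6 and 19.9 TPM in PBS. TfebWT cells had 2.67, 1.58 and 1.19 TPM with MSUc, against 28.2 and 22.7 TPM in PBS. Ampka1WT cells had 9.05, 4.06 and 3.26 TPM with MSUc, against 72.6, 82.6 and 85.5 TPM in PBS. The MSUc libraries lay far below the PBS libraries in each.

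**Figure D2:**
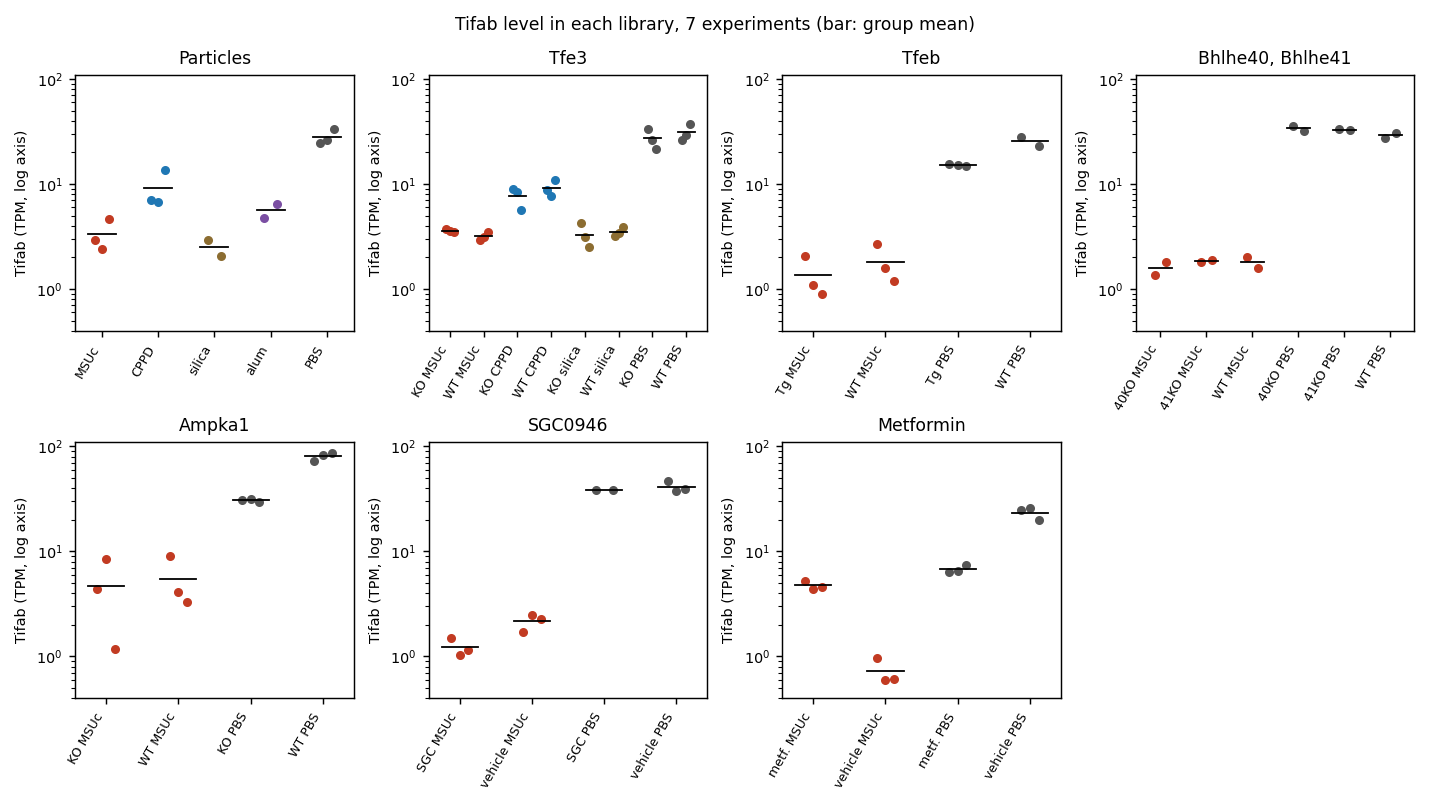
Tifab level in TPM on a log axis in every library of 7 experiments, with 1 point per library, a bar at the group mean, groups named below the axis and points coloured by particle. MSUc libraries lie below PBS libraries of the same cells everywhere, and metformin cells with MSUc and with PBS lie closest, at 4.40 to 5.26 TPM and 6.39 to 7.34 TPM.

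The other genes moved in both directions in the 8 contrasts, the 5 h time point included. Tifa fell in all 8, by 1.10 to 1.85 on the log2 scale, and Irak4 fell in all 8, by 0.85 to 1.58. Traf6 rose in all 8, with changes of 0.54 to 1.06. Of the 11186 genes tested in all 8, 864 (7.72%) rose in all and 1874 (16.8%) fell in all. These calls of Tifa, Irak4 and Traf6 all held with median-of-ratios scaling and with voom, as did the 7 Tifab calls outside the time course. Leaving out replicate 2 of TfebWT in PBS lost the Traf6 call in that experiment, at 0.51 (limma adjusted p = 0.0513).

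Myd88 fell in all 8, by 0.34 to 0.78, but in 6 of 8 with median-of-ratios scaling and in 6 of 8 with voom. Irak2 rose in 6 of 8, with changes of 0.09 to 1.11, and in 7 of 8 with either alternative. It did not pass in the vehicle cells of the 2 drug experiments, at 0.11 (SE 0.06) and 0.09 (SE 0.10). Irak3, the brake on the complex, fell in 6 of 8, and in 3 with scaling and 4 with voom. Irak1 fell in 5 of 8, but in 0 with scaling and 1 with voom, where its changes ran from -0.24 to 0.11 and from -0.28 to 0.12. In these 8 contrasts the median change of all genes was -0.30 to -0.16, and median-of-ratios scaling moved changes up by 0.14 to 0.33, so the calls of Irak1 in 5 contrasts, of Irak3 in 3 and of Myd88 in 2 turn on the scaling. In the comparison of particles the Myd88 call was also lost without replicate 1 or 3 of PBS, at -0.33 and -0.31, and without replicate 2 or 3 of MSUc, at -0.26 and -0.30.

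**Figure D3:**
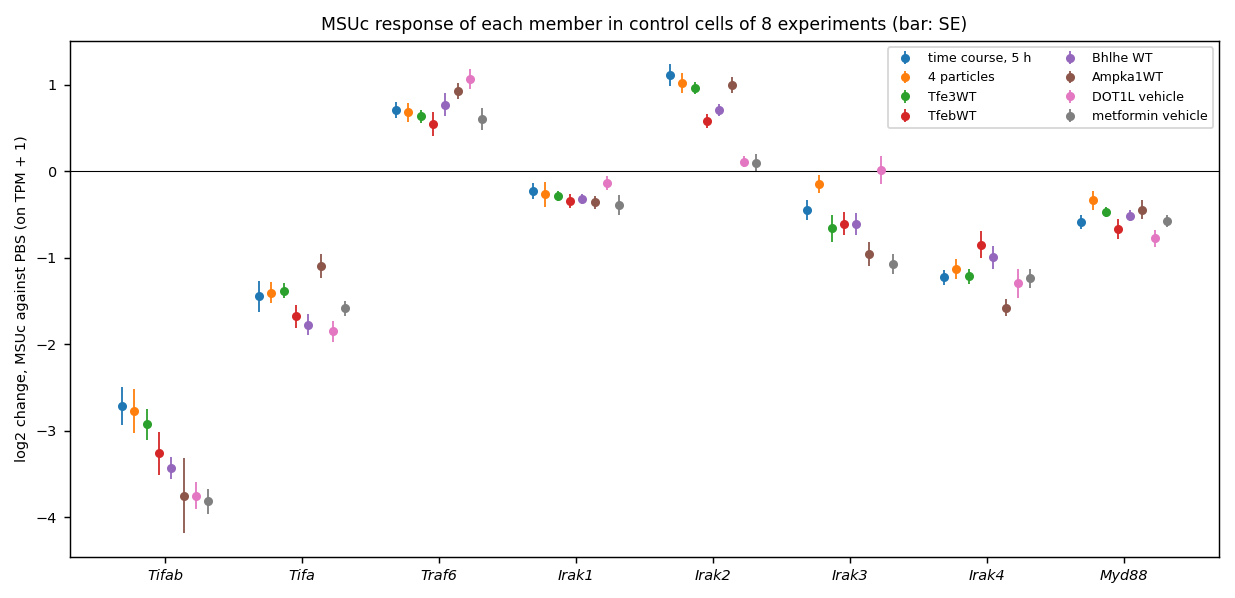
Change of each gene with MSUc against PBS in the control cells of the 8 experiments, as log2 of TPM + 1, with bars of 1 SE. All Tifab points lie between -3.82 and -2.72, and Tifa and Irak4 lie below 0 and Traf6 above it in every experiment. Irak1 lies between -0.39 and -0.14.

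For the comparison of 4 particles the labels list 3 alum and 2 silica samples, whereas the table heads 2 columns as alum and 3 as silica. The 2 alum columns and the 2 silica columns whose names match a title are used as headed, so the identity and number of libraries in these 2 groups are in doubt, and so are the results on silica and alum in this experiment. All 4 particles lowered Tifab, and among the differences tested from MSUc only that of CPPD, a smaller fall, was called. Tifab had 2.92, 2.40 and 4.63 TPM with MSUc, 6.98, 6.77 and 13.6 TPM with CPPD, 2.93 and 2.05 TPM with silica and 4.72 and 6.51 TPM with alum, against 24.5, 25.96 and 33.7 TPM in PBS. Every particle library lay below every PBS library. Against PBS it fell by 2.77 with MSUc, 1.57 with CPPD, 3.05 with silica and 2.14 with alum on the log2 scale (SE 0.26 to 0.29, limma adjusted p = 2.42e-06, 0.000309, 3.13e-06 and 8.63e-05). In order of group mean, which is a description, PBS came before CPPD, alum, MSUc and silica. CPPD exceeded MSUc by 1.198 (SE 0.26, limma adjusted p = 0.00557). Silica differed from MSUc by -0.28 (SE 0.29, limma adjusted p = 0.407) and alum by 0.64 (SE 0.29, limma adjusted p = 0.0797), neither past the threshold. The alum difference passed without replicate 3 of MSUc, at 0.84 (limma adjusted p 0.00306 to 0.454 over its alternatives). CPPD and alum were not set against each other.

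Against PBS, MSUc raised 2 and lowered 4 of the 8 genes (18.1% and 44.9% of 12314 genes), and CPPD raised 4 and lowered 3 (16.6% and 35.8%). Silica raised 0 and lowered 4 (24.4% and 43.9%), and alum raised 3 and lowered 3 (27.1% and 19.2%). With median-of-ratios scaling those backgrounds were 28.6% and 27.1% for MSUc, 25.1% and 21.5% for CPPD, 35.7% and 31.5% for silica, and 21.9% and 23.2% for alum. Over all genes, longer transcripts tended to be higher with alum. The Spearman correlation of length with change was 0.486 for alum against PBS and 0.440 against MSUc. Against PBS it was 0.0927 for MSUc, 0.139 for CPPD and -0.0442 for silica. The part of length in the alum differences was not tested. Against MSUc itself, CPPD had 5 genes higher and 0 lower (14.8% and 8.86%; 10.1% and 12.4% with scaling), silica 1 higher and 4 lower (30.3% and 33.3%), and alum 4 higher and 0 lower (41.7% and 11.5%; 16.6% and 25.2% with scaling). Of the 4 in alum, Tifa and Irak4, at 1.03 and 0.96, held with scaling, where Irak1 and Irak3 lost the call and Irak2 and Myd88 were called lower, at -0.47 and -0.43. The Irak1 call was also lost without replicate 1 or 2 of MSUc or of alum, at 0.41 to 0.50. The Irak4 difference of CPPD from MSUc, 0.39, was lost without replicate 2 or 3 of MSUc or 1 or 3 of CPPD, at 0.36 to 0.38, and the differences of silica from MSUc in Traf6, at -0.42, and Myd88, at -0.36, without replicate 2 of silica, at -0.34 and -0.20, that of Myd88 also without replicate 1 of MSUc, at -0.25. Against PBS, the alum changes of Irak3, at 0.33, and Myd88, at -0.33, were lost without replicate 1 or 2 of alum or of PBS, at 0.28 to 0.33 and -0.42 to -0.25, and that of Myd88 also without replicate 3 of PBS, at -0.31.

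Tifa told MSUc from the other particles. It had 31.8, 22.2 and 26.6 TPM with MSUc, 73.2, 66.2 and 63.2 TPM with CPPD, 71.99 and 79.2 TPM with silica and 60.01 and 51.02 TPM with alum, against 69.9, 68.3 and 78.6 TPM in PBS. The MSUc libraries lay below those of every other group. Tifa exceeded its MSUc level by 1.31 with CPPD (SE 0.12), 1.47 with silica (SE 0.14) and 1.03 with alum (SE 0.14) on the log2 scale, with limma adjusted p = 4.43e-05, 4.86e-06 and 9.89e-05. Against PBS the change was -0.10 with CPPD and 0.07 with silica, neither past the threshold, and the silica change passed as a rise with scaling, at 0.45. The fall with alum, by 0.38 (limma adjusted p = 0.0423), was lost without replicate 1, 2 or 3 of PBS, at -0.40, -0.42 and -0.31, and without replicate 2 of alum, at -0.26.

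The adaptor Myd88 and the brake Irak3 went up with CPPD. Myd88 had 83.9, 90.7 and 82.5 TPM with CPPD, against 68.9, 64.7 and 70.6 TPM in PBS, and 62.7, 48.1 and 51.1 TPM with MSUc. CPPD exceeded MSUc by 0.67 (SE 0.11, limma adjusted p = 0.00143). Its rise against PBS, by 0.33 (limma adjusted p = 0.0287), was lost without replicate 1 or 2 of PBS, at 0.34 and 0.29, and without replicate 1 or 2 of CPPD, at 0.34 and 0.29. Irak3 had 35.7, 35.1 and 31.8 TPM with CPPD, against 17.2, 18.5 and 20.3 TPM in PBS, and 19.1, 14.1 and 17.3 TPM with MSUc. It rose with CPPD by 0.84 against PBS (SE 0.11, limma adjusted p = 5.52e-05), and exceeded MSUc by 0.99 (SE 0.11, adjusted p = 9.1e-05).

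Irak2 had 81.1, 88.8 and 88.2 TPM with MSUc, 73.93, 92.98 and 81.95 TPM with CPPD, 43.2 and 33.4 TPM with silica and 78.2 and 89.5 TPM with alum, against 41.01, 40.25 and 44.8 TPM in PBS. It rose by 1.02, 0.96 and 0.98 with MSUc, CPPD and alum. Silica lay 1.16 below MSUc (log2 -1.16, SE 0.13, limma adjusted p = 1.14e-05) and differed from PBS by -0.14 (SE 0.13), which passed without replicate 1 of silica, at -0.32. Irak4 fell by 1.13 with MSUc, 0.73 with CPPD and 1.36 with silica, and differed by -0.16 (SE 0.13) with alum, where voom called a fall, at -0.39. With CPPD Irak1 fell by 0.39, a call lost with scaling, at -0.16, and without 1 of 5 libraries, replicates 1, 2 or 3 of PBS and 1 or 2 of CPPD, at -0.41 to -0.33. Irak1 fell by 1.05 with silica (SE 0.16, limma adjusted p = 0.000126), where it had 31.1 and 18.3 TPM against 50.8, 49.2 and 51.5 TPM in PBS. Traf6 rose by 0.97 with alum, 0.68 with MSUc and 0.42 with CPPD, and its silica difference of 0.26 passed with scaling, at 0.62, and without replicate 3 of PBS, at 0.36.

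In silica cultures the 8 neutrophil markers summed to 236 to 339 TPM, against 43.0 to 98.9 TPM in PBS, with 5 and 3 of 8 at 1 TPM or more and Ly6g at 0 in PBS. The 8 macrophage markers summed to 35200 to 39800 TPM with silica, against 28300 to 31100 TPM in PBS. Their part in the silica values was not tested.

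Tfe3WT cells gave a separate set of libraries for 3 of the particles. Tifab fell by 2.93 with MSUc, 1.66 with CPPD and 2.82 with silica on the log2 scale (SE 0.18 each). It had 8.80, 7.70 and 10.8 TPM with CPPD, against 26.1, 29.3 and 37.4 TPM in PBS. Myd88 had 84.0, 79.9 and 83.5 TPM with CPPD, against 65.4, 67.1 and 70.0 TPM in PBS, and rose by 0.29 (SE 0.06, limma adjusted p = 0.000291). Irak3 had 46.6, 40.5 and 55.4 TPM with CPPD, against 24.5, 24.8 and 27.3 TPM in PBS, and rose by 0.86 (SE 0.16, limma adjusted p = 0.000101). Irak2, with 56.6, 53.44 and 55.97 TPM with silica against 41.1, 42.8 and 37.9 TPM in PBS, rose here by 0.44 (SE 0.07, limma adjusted p = 1.53e-05), unlike in the comparison of 4 particles; the difference between the experiments was not tested. Tifa had 48.1, 49.1 and 43.4 TPM with CPPD, 49.1, 50.1 and 54.6 TPM with silica and 25.1, 23.3 and 23.2 TPM with MSUc, against 62.4, 61.5 and 67.7 TPM in PBS. It fell by 1.38 with MSUc, and its falls by 0.44 with CPPD and 0.31 with silica were lost with scaling, at -0.19 and -0.22. Neutrophil markers summed to 1250 to 1660 TPM with silica, against 244 to 468 TPM in PBS, with 7 of 8 at 1 TPM or more in each, and their part was not tested.

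**Figure D4:**
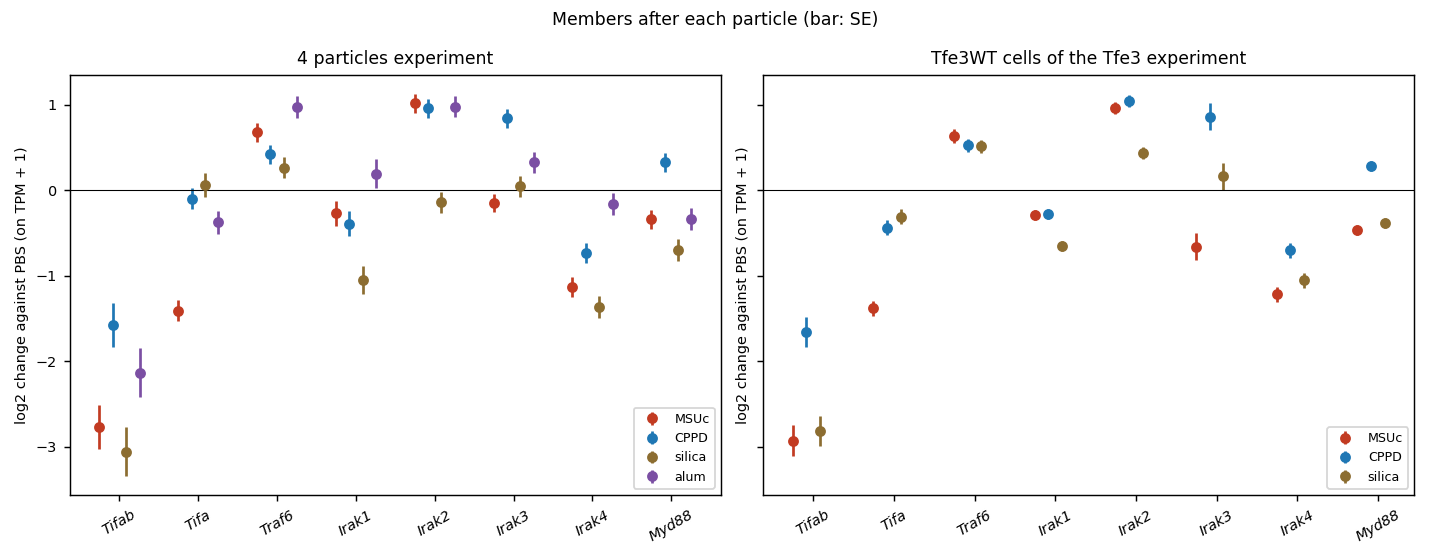
Change of each gene against PBS with each particle, as log2 of TPM + 1 with bars of 1 SE, in the comparison of 4 particles (left) and in Tfe3WT cells (right). Tifab lies lowest for every particle and highest with CPPD, at -1.57 and -1.66, and Irak3 and Myd88 lie above 0 with CPPD in both panels.

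TFE3 and TFEB, activators of lysosomal genes, and the repressors BHLHE40 and BHLHE41 were altered by genotype, and few of the 8 genes differed. MSUc raised 2 and lowered 6 genes in the libraries labelled Tfe3KO (20.1% and 42.4% of 12796 genes; 29.2% and 28.6% with scaling) and also in Tfe3WT (20% and 41.6%; 29.1% and 27.8% with scaling). CPPD raised 4 and lowered 4 in both (19.3% and 41.9% in Tfe3KO, 18.5% and 41.7% in Tfe3WT; 29.3% and 27.4%, and 28.3% and 25.2%, with scaling). Silica raised 2 and lowered 5 in both (28.7% and 40.7% in Tfe3KO, 28.8% and 37.1% in Tfe3WT). The Irak3 fall with MSUc in Tfe3KO, by 0.38, was lost without replicate 1 or 2 of Tfe3KO in PBS or without replicate 1, 2 or 3 of Tfe3KO with MSUc, at -0.40 to -0.24, and the Tifa fall with CPPD in Tfe3KO, by 0.26, without replicate 1 of PBS or 3 of CPPD, at -0.14 and -0.21. Leaving out all 4 Tfe3KO libraries numbered 1 also lost that Irak3 fall, at -0.25. The Irak3 differences with silica, 0.25 in Tfe3KO and 0.17 in Tfe3WT, passed without replicate 1 of Tfe3KO in PBS, at 0.39, and without replicate 2 of Tfe3WT with silica, at 0.36.

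Between genotypes 3 of 32 differences were called. Myd88 was higher in Tfe3KO than in Tfe3WT with CPPD, at 113.7, 112.4 and 112.4 TPM against 84.0, 79.9 and 83.5 TPM, a difference of 0.45 (SE 0.06, limma adjusted p = 3.41e-05; background 3.45% higher and 4.64% lower). It was also higher with MSUc, at 58.7, 59.6 and 60.4 TPM against 46.1, 50.9 and 48.7 TPM, by 0.29 (SE 0.06, limma adjusted p = 0.00228; background 4.1% higher and 6.63% lower). The groups did not overlap in either case. In PBS the difference was 0.13 (SE 0.06, limma adjusted p = 0.332). No gene was called in PBS or with silica in limma (background 2.37% and 12.5%), with 1 and 0 at an unadjusted p under 0.05 and 0 in voom. The response of Myd88 to CPPD differed between genotypes by 0.32 (SE 0.08) without passing (limma adjusted p = 0.0703), and passed without replicate 1 of Tfe3KO in PBS, at 0.34 (limma adjusted p 0.0444 to 0.179 over its alternatives).

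Irak4 was higher in Tfe3KO than in Tfe3WT with MSUc by 0.29 (SE 0.09, limma adjusted p = 0.0402), at 17.6, 16.5 and 16.6 TPM against 15.3, 13.2 and 12.7 TPM. That call was lost without any 1 of 5 of the 6 libraries, all but replicate 1 of Tfe3WT, at 0.24 to 0.30, and without the 4 Tfe3KO libraries numbered 1, at 0.26. Without those 4, Tifa was called lower in Tfe3KO with MSUc, at -0.25 (limma adjusted p = 0.0419). None of the 24 differences in particle response between Tfe3KO and Tfe3WT was called; 3 passed an unadjusted p of 0.05, Traf6 and Irak4 with MSUc and Myd88 with CPPD, and voom called 0. For Tifab these were 0.33 with MSUc, -0.04 with CPPD and 0.10 with silica (SE 0.25 each). Background calls were 1.73%, 0.93% and 1.52%.

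In TfebTg cells Tifab had 15.4, 15.3 and 14.8 TPM in PBS, against 28.2 and 22.7 TPM in TfebWT. The groups did not overlap, and the difference was -0.71 (SE 0.25, limma adjusted p = 0.433); voom called it, at -0.70 (limma adjusted p 0.00349 to 1 over its alternatives). With MSUc Tifab had 2.08, 1.08 and 0.904 TPM in TfebTg, against 2.67, 1.58 and 1.19 TPM in TfebWT, which overlap. All 8 genes were called for MSUc against PBS in TfebTg and in TfebWT, 2 higher and 6 lower in each (12.5% and 35% of genes in TfebTg, 12.6% and 32.9% in TfebWT; 20.5% and 16.5%, and 20.1% and 16.4%, with scaling). Leaving out replicate 1 of TfebTg in PBS lost its Traf6 call, at 0.36, and replicate 2 of TfebWT in PBS that of TfebWT, at 0.51. None of 16 genotype differences and none of 8 differences in response was called in limma, with 1 and 0 at an unadjusted p under 0.05 and 1 and 0 in voom (background 0.717% in PBS, 3.48% with MSUc and 0.1% for the response). In 1 TfebWT library titled MSUc the treatment field says PBS, and its Tifab level of 1.19 TPM lies with the MSUc libraries.

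In Bhlhe40-/- and Bhlhe41-/- cells the 8 genes responded to MSUc as called in WT, 2 higher and 6 lower in each genotype (16.2% and 45.3% of genes in Bhlhe40-/-, 14.8% and 42% in Bhlhe41-/-, 17.1% and 43.4% in WT; 27.8% and 23.7%, 24.9% and 20.2%, and 27.7% and 25% with scaling). In Bhlhe41-/- cells the Irak3 fall by 0.40 was lost without replicate 1 of PBS or of MSUc, at -0.33 and -0.30, and the Traf6 rise of 0.50 without replicate 1 of PBS, at 0.46. Tifab had 1.35 and 1.79 TPM with MSUc against 35.5 and 31.9 TPM with PBS in Bhlhe40-/- cells, 1.79 and 1.88 TPM against 33.1 and 32.7 TPM in Bhlhe41-/- cells, and 2.00 and 1.58 TPM against 27.4 and 30.6 TPM in WT cells. Its response differed from WT by -0.33 in Bhlhe40-/- and -0.15 in Bhlhe41-/- cells (SE 0.18 each). None of 32 genotype differences and 16 differences in response was called in limma, with 3 and 1 at an unadjusted p under 0.05, and voom called 0. The background for Bhlhe40-/- against WT was 0.0824% in PBS, 0.0165% with MSUc and 0.00824% for the response, and for Bhlhe41-/- it was 2.76%, 1.33% and 0.132%.

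In the libraries labelled Ampka1KO the kinase Irak2 responded to MSUc in the opposite direction. Irak2 had 29.8, 25.7 and 32.9 TPM with MSUc against 48.3, 43.5 and 44.4 TPM with PBS in Ampka1KO, and 77.5, 77.2 and 78.2 TPM with MSUc against 36.3, 40.6 and 38.5 TPM with PBS in Ampka1WT. It fell by 0.61 in Ampka1KO (SE 0.09, limma adjusted p = 0.000123) and rose in Ampka1WT by 1.00 (SE 0.09, limma adjusted p = 1.73e-06). The difference in response was -1.61 (SE 0.12, limma adjusted p = 3.2e-06), and -1.99 to -1.52 over all alternatives. Traf6 had 13.2, 15.4 and 13.8 TPM with MSUc against 12.2, 10.6 and 10.8 TPM with PBS in Ampka1KO, and 21.3, 20.4 and 18.9 TPM against 10.4, 10.2 and 9.80 TPM in Ampka1WT. It rose less in Ampka1KO, by a difference of -0.62 (SE 0.13, limma adjusted p = 0.00228). The background for differences in response was 34.7% higher and 15.9% lower of 12834 genes, and 19.7% and 23.6% with median-of-ratios scaling, and 1 and 2 of the 8 genes were called.

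At rest Tifab had 30.9, 31.4 and 29.3 TPM in Ampka1KO, against 72.6, 82.6 and 85.5 TPM in Ampka1WT, with no overlap. It was lower by 1.36 on the log2 scale (log2 -1.36, SE 0.43, limma adjusted p = 0.0222). That call was lost without replicate 2 or 3 of Ampka1WT in PBS, at -1.34 and -1.32, without replicate 1 or 3 of Ampka1KO in PBS, at -1.37 and -1.33, and with a pseudocount of 0.1 TPM, at -1.39. Irak4 had 19.0, 16.4 and 17.05 TPM in Ampka1KO in PBS, against 37.7, 39.3 and 38.5 TPM in Ampka1WT (log2 -1.10, SE 0.10, limma adjusted p = 3.61e-06). In PBS 1 gene was higher and 4 were lower in Ampka1KO (33.8% and 13.8% of all genes; 23.7% and 23.9% with scaling), and with MSUc 0 were higher and 6 lower (51.6% and 20.2%; 31.1% and 36.6% with scaling). The 1 higher gene in PBS, Irak2 at 0.23, lost its call without any 1 of the 6 libraries, at 0.19 to 0.27, and with scaling, at 0.03. Myd88 with MSUc, at -0.30, lost its call without replicate 1 or 2 of Ampka1WT or 2 or 3 of Ampka1KO, at -0.29 to -0.21.

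Tifab with MSUc had 4.43, 8.46 and 1.18 TPM in Ampka1KO, against 9.05, 4.06 and 3.26 TPM in Ampka1WT, which overlap. Its change with MSUc was -2.71 in Ampka1KO and -3.75 in Ampka1WT (SE 0.43 each). MSUc raised 1 and lowered 7 of the 8 genes in Ampka1KO (29.7% and 28.8% of all genes) and raised 2 and lowered 6 in Ampka1WT (19.7% and 43.9%; 30.5% and 28.2% with scaling). The difference, 1.05 (SE 0.61), did not pass (limma adjusted p = 0.174), but did without replicate 3 of Ampka1KO with MSUc, at 1.62 (limma adjusted p 0.00951 to 0.378 over its alternatives). The Irak4 difference in response, 0.46 (SE 0.14, limma adjusted p = 0.0205), was lost with median-of-ratios scaling, at 0.17, with voom, at 0.07, and without replicate 2 of Ampka1KO in PBS, at 0.42. Tifa, at -0.43 (SE 0.19, limma adjusted p = 0.0835), passed without replicate 2 of Ampka1KO with MSUc, at -0.58, and with scaling, at -0.72.

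The Ampka1KO cultures also had higher sums of stromal and neutrophil markers and lower sums of macrophage markers. Such sums do not show which cells the RNA came from. The 6 stromal markers summed to 2410 to 3040 TPM with MSUc and 859 to 1400 TPM with PBS in Ampka1KO, against 67.6 to 220 TPM and 78.8 to 146 TPM in Ampka1WT, with 6 and 5 against 5 and 4 of 6 at 1 TPM or more. The 8 macrophage markers summed to 8390 to 10500 TPM and 24700 to 27400 TPM in Ampka1KO, against 29300 to 35100 TPM and 37000 to 41200 TPM in Ampka1WT. The 8 neutrophil markers summed to 277 to 326 TPM and 113 to 168 TPM in Ampka1KO, against 10.7 to 58.9 TPM and 16.4 to 24.9 TPM in Ampka1WT, where Ly6g was at 0 with MSUc. Their part in these values was not tested.

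In PBS none of the 8 genes was called between SGC0946 and vehicle in limma (0 at an unadjusted p under 0.05 and 0 in voom; background 0.673%), with Tifab at 38.7 and 38.1 TPM in SGC0946 and 46.7, 38.0 and 39.6 TPM in vehicle. MSUc raised 1 and lowered 5 in SGC0946 (15.7% and 33.3%; 23.4% and 19.3% with scaling) and raised 1 and lowered 4 in vehicle (17.8% and 37.7%; 24.6% and 25.5% with scaling), with Tifab falling by 4.15 and 3.75 (SE 0.17 and 0.15). The falls in SGC0946 of Irak1, by 0.36, and Myd88, by 0.34, were lost without replicate 2 of SGC0946 in PBS, at -0.29 and -0.26, and that of Myd88 also without replicate 1 or 2 of SGC0946 with MSUc, at -0.31 and -0.32. With MSUc 1 gene was higher and 2 were lower in SGC0946 (7.39% and 9.24% of 12324 genes). Over all genes, longer transcripts tended to be lower in SGC0946 than in vehicle. The Spearman correlation of length with change was -0.449 with MSUc and -0.334 in PBS. Of the genes below, Myd88 is annotated at 1897 bases, Tifab at 3493, Irak1 at 3938 and Traf6 at 6178. The part of length in their differences was not tested. Tifab had 1.50, 1.03 and 1.16 TPM in SGC0946, against 1.70, 2.48 and 2.28 TPM in vehicle, with no overlap. Its difference of -0.50 (SE 0.15, limma adjusted p = 0.0471) was lost without any 1 of 5 of the 6 libraries, all but replicate 1 of vehicle, at -0.58 to -0.42, and had limma adjusted p 0.0248 to 0.323 over its alternatives. Myd88 had 42.3, 42.5 and 47.6 TPM in SGC0946, against 32.6, 28.7 and 34.7 TPM in vehicle, and was higher by 0.45 (SE 0.10, limma adjusted p = 0.0132), which was lost without replicate 3 of SGC0946, at 0.40. Irak1 was lower by 0.30 (log2 -0.30, SE 0.08, limma adjusted p = 0.0268), which was lost without replicate 2 of vehicle, at -0.26, and without replicate 1, 2 or 3 of SGC0946, at -0.32, -0.31 and -0.29. Traf6, at -0.35 (limma adjusted p = 0.0643), passed without replicate 2 of SGC0946, at -0.45. None of the 8 differences in MSUc response was called in limma (0.0325% of genes), 1 passed an unadjusted p of 0.05, that of Myd88, and voom called 0.

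With metformin Tifab was lower at rest and its MSUc response was much smaller. Tifab had 5.26, 4.40 and 4.598 TPM with MSUc against 6.39, 6.55 and 7.34 TPM with PBS in metformin cells, and 0.974, 0.602 and 0.606 TPM with MSUc against 24.7, 25.6 and 19.9 TPM with PBS in vehicle cells. Metformin libraries lay below vehicle libraries in PBS and above them with MSUc. The change with MSUc was -0.43 in metformin (SE 0.14, limma adjusted p = 0.0367) and -3.82 in vehicle (SE 0.14, limma adjusted p = 3.55e-09), a difference of 3.39 (SE 0.20, limma adjusted p = 3.21e-06). The -0.43 lost its call in 10 of 12 alternatives, among them without replicate 1, 2 or 3 of metformin in PBS, at -0.47, -0.45 and -0.38, and without replicate 2 or 3 of metformin with MSUc, at -0.39 and -0.42. The difference of 3.39 held in all 18 alternatives, at 3.32 to 4.41.

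Tifa differed in the same direction. It had 25.0, 28.4 and 22.8 TPM with MSUc against 33.5, 32.2 and 33.6 TPM with PBS in metformin cells, and 15.9, 15.9 and 16.5 TPM against 49.2, 48.1 and 54.1 TPM in vehicle cells. Its response differed by 1.21 (SE 0.13, limma adjusted p = 0.00015). Irak4 had 9.95, 11.2 and 10.1 TPM with MSUc against 12.6, 14.3 and 13.0 TPM with PBS in metformin cells, and 10.7, 10.6 and 8.66 TPM against 25.5, 23.8 and 25.5 TPM in vehicle cells, a difference in response of 0.92 (SE 0.15, limma adjusted p = 0.00263). Irak3 had 11.2, 13.3 and 10.7 TPM with MSUc against 13.1, 10.99 and 14.03 TPM with PBS in metformin cells, and 5.27, 5.53 and 5.59 TPM against 12.5, 12.1 and 13.2 TPM in vehicle cells, a difference in response of 0.97 (SE 0.17, limma adjusted p = 0.00365). These 3 differences held in all 18 alternatives.

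So 4 of the 8 genes differed in response in metformin, all in the positive direction (background 7.52% higher and 4.72% lower of 12514 genes; 5.39% and 6.92% with scaling). The other 4 did not pass: Traf6 at -0.41 (SE 0.18), Myd88 at 0.33 (SE 0.10), Irak1 at 0.15 (SE 0.16) and Irak2 at 0.14 (SE 0.15). Myd88, at a limma adjusted p of 0.0526, passed without replicate 3 of metformin with MSUc, at 0.36, and with no filter on low values, at 0.33. Against vehicle in PBS, metformin lowered 3 genes and raised 1 (16.3% and 23.2%; 19.2% and 19% with scaling): Tifab by 1.65, Irak4 by 0.86 and Tifa by 0.59 fell, and Traf6 rose to 18.3, 15.9 and 18.8 TPM, against 10.4, 10.3 and 10.0 TPM, a change of 0.73 (SE 0.12, limma adjusted p = 0.000601). With MSUc 6 were higher and 0 lower in metformin (29.6% and 14%; 19.7% and 21.7% with scaling), of which Tifab, at 1.74, Tifa, at 0.62, and Irak3, at 0.97, held with scaling. Irak1, at 0.30, lost its call without replicate 1, 2 or 3 of vehicle or 2 or 3 of metformin, at 0.19 to 0.31, and Irak2, at 0.33, without replicate 1 or 2 of vehicle or 2 or 3 of metformin, at 0.26 to 0.31. Traf6, at 0.32 (limma adjusted p = 0.0524), passed without replicate 1 of metformin, at 0.44. MSUc raised 0 and lowered 4 genes in metformin cells (11.8% and 17.1%) and raised 1 and lowered 6 in vehicle cells (19.6% and 34.3%; 25.7% and 26.4% with scaling). Besides Tifab and Tifa, the 4 were Irak4, whose fall by 0.33 was lost without replicate 1, 2 or 3 of PBS or 1 or 3 of MSUc, at -0.36 to -0.28, and Myd88, whose fall by 0.25 was lost without replicate 1 or 2 of PBS or 3 of MSUc, at -0.24 to -0.22. Irak1, at -0.25, and Irak2, at 0.23, passed in metformin without replicate 2 and replicate 1 of MSUc, at -0.35 and 0.34.

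Macrophage marker sums were 13000 to 15500 TPM with MSUc and 11500 to 13000 TPM with PBS in metformin cells, against 19300 to 22300 TPM and 23200 to 26000 TPM in vehicle cells, with all 8 at 1 TPM or more. The 6 stromal markers summed to 160 to 350 TPM and 74.6 to 226 TPM in metformin cells, against 484 to 616 TPM and 180 to 370 TPM in vehicle cells, with 5 of 6 at 1 TPM or more in each and Lum at 0 in both PBS groups. The 8 neutrophil markers summed to 17.9 to 57.0 TPM and 2.46 to 10.8 TPM in metformin cells, against 41.2 to 164 TPM and 13.7 to 58.2 TPM in vehicle cells, with 2 and 2 against 6 and 3 of 8 at 1 TPM or more and Ly6g at 0 in all 4 groups. The part of these in the metformin values was not tested.

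**Figure D5:**
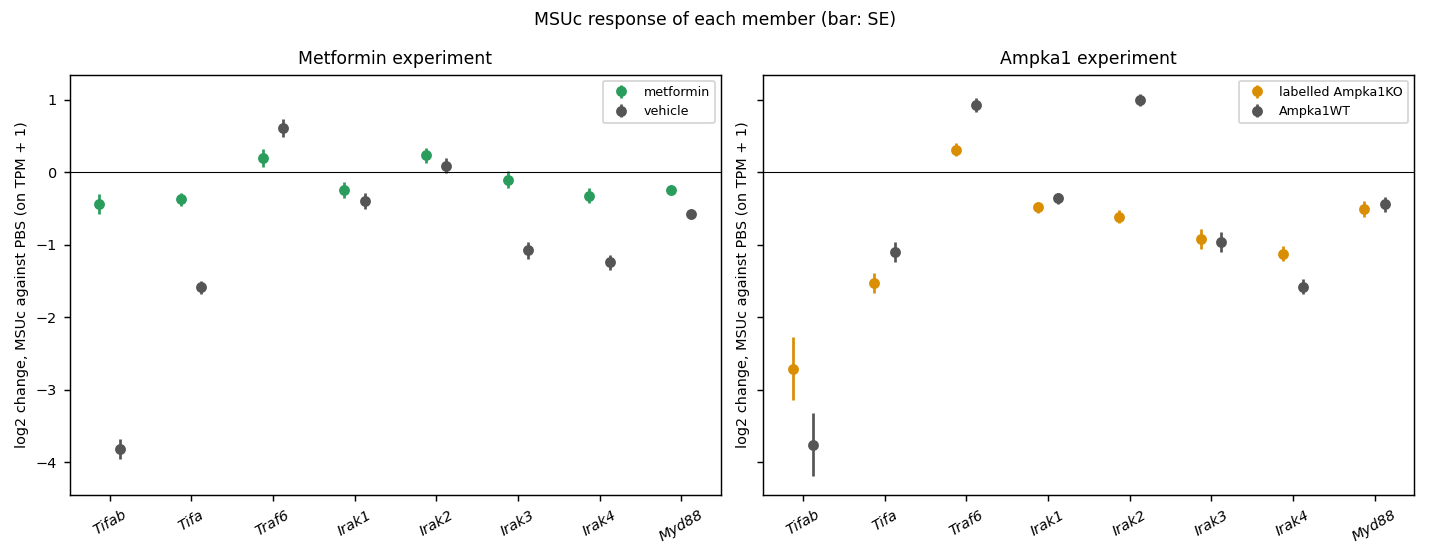
Change of each gene with MSUc against PBS, as log2 of TPM + 1 with bars of 1 SE, in metformin and vehicle cells (left) and in Ampka1KO and Ampka1WT cells (right). Tifab stands at -0.43 in metformin and -3.82 in vehicle cells, and Irak2 at -0.61 in Ampka1KO and 1.00 in Ampka1WT cells.

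A list of 40 further genes of the pathway was counted in the same way: adaptors, IL-1 family receptors, the TAK1 and IKK machinery, ubiquitin ligases and brakes. Of 35 tested in all 8 control contrasts of MSUc, 4 rose in all 8 (11.4%) and 8 fell in all 8 (22.9%), against 7.72% and 16.8% of all genes tested in all 8, shares near the background. Those that rose were Tnfaip3 (mean log2 change 3.34), which encodes the NF-kappaB brake A20, Ticam1 (1.65), the adaptor TRIF of TLR3 and TLR4, Tollip (1.47), a brake on IRAK1, and Otulin (0.86), a deubiquitinase of linear ubiquitin. Among those that fell were Peli2 (-1.33), a ubiquitin ligase acting on IRAK proteins, and Tab1 (-1.15), a TAK1 partner. Alpk1 (-1.05), the kinase upstream of TIFA, and Rbck1 (-0.88), a subunit of the linear ubiquitin ligase LUBAC, fell too. So did Cyld (-0.79), listed as a brake, Ticam2 (-0.79), listed as a TIR adaptor, Sharpin (-0.71) and Ikbkb (-0.63).

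Tnfaip3 averaged 181.7 ± 11.4 TPM after 5 h of MSUc and 17.8 ± 2.39 TPM in PBS (SD, n = 2 each), and Peli2 averaged 4.48 ± 1.04 TPM and 16.6 ± 2.80 TPM. By group of the list at 5 h, 4 of 6 brakes rose and 1 fell, 3 of 4 other TRAF genes rose and 0 fell, 1 of 8 IKK and LUBAC genes rose and 3 fell, 2 of 11 TAK1 complex and ubiquitin ligase genes rose and 3 fell, 1 of 4 TIR adaptors rose and 2 fell, and 0 of 4 receptors were called. With median-of-ratios scaling 3 of 8 IKK and LUBAC genes rose and 3 fell. For the TAK1 complex and ubiquitin ligases 4 of 11 rose and 3 fell, and for TIR adaptors 2 of 4 rose and 1 fell. The counts of the other groups stayed the same. The background at 5 h was 16.4% higher and 32.9% lower, or 25.1% and 20.4% with scaling. The groups are small, and no test was made between them. Of 37 tested, 9 rose and 8 fell at 2 h (14 and 6 with scaling; background 11.2% and 22.3%, or 16.5% and 12.1% with scaling), with a median change of 0.03 against -0.15 over all genes. In the comparison of particles, of 37, MSUc raised 13 and lowered 13 (background 18.1% and 44.9%), CPPD raised 15 and lowered 7 (16.6% and 35.8%), silica raised 11 and lowered 17 (24.4% and 43.9%), and alum raised 19 and lowered 2 (27.1% and 19.2%). With median-of-ratios scaling these were 19 and 8, 19 and 4, 19 and 13, and 16 and 2. The part of the length trend in the alum counts was not tested. Of 36 genes 6 differed in MSUc response upward and 5 downward in metformin (7.52% and 4.72% of all genes), or 4 and 5 with scaling. Of 38 genes 12 and 11 did in Ampka1KO (34.7% and 15.9%), or 6 and 16 with scaling (19.7% and 23.6%).

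Tifab can also be set against all other genes. Over the 45 groups, centred on each experiment, the genes whose group means ran most like those of Tifab among 9085 genes were Themis2 (Pearson r = 0.976), Pik3cd (0.975), Tnfaip8l2 (0.974), Tor4a (0.971) and Zfp710 (0.970). The least like were Stam2 (-0.973), Eif4e (-0.971) and Osgin2 (-0.970). Among the 7 others, Irak4 (0.938) and Tifa (0.894) ran closest, followed by Myd88 (0.777), Irak1 (0.682) and Irak3 (0.592), while Irak2 (-0.556) and Traf6 (-0.847) ran opposite. The groups share experiments, libraries' depth and the common MSUc response, so these values describe the data only.

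The genes beside Tifab on chromosome 13 of mm10 had smaller changes. Tifab is annotated at chr13:56173703-56178885 on the minus strand, and no annotated gene overlapped it. H2afy, which encodes the histone variant macroH2A1, ends 38153 bases to its left, at chr13:56073622-56135550. It had 49.5 and 55.6 TPM after 5 h of MSUc, against 65.4 and 88.0 TPM in PBS, a difference of -0.52 (SE 0.25, limma adjusted p = 0.0955), and fell with MSUc in the comparison of particles by 0.48 (SE 0.11) and with silica by 1.11 (SE 0.12). Its MSUc response in metformin minus that in vehicle was 0.16 (SE 0.14, limma adjusted p = 0.512), which did not pass, and in Ampka1KO minus Ampka1WT it was 0.52 (SE 0.09, limma adjusted p = 0.00102). 4930550C17Rik, 43339 bases to the right, was listed at 0 TPM in most groups and reached 0.073 TPM at most.

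The authors' deposited chromatin lists name the 8 genes as nearest gene in 12 entries. The lists cover binding of DOT1L, TFE3 and TFEB and regions of H3K27ac and H3K4me3 gained or reduced with MSUc. Gained lists hold 4756 DOT1L, 4446 TFE3 and 5667 TFEB peaks, and 2081 H3K27ac and 1168 H3K4me3 regions. Reduced lists hold 4208 DOT1L peaks and 1838 H3K27ac and 868 H3K4me3 regions, with none used for TFE3 or TFEB. The share of all genes named by an entry was not counted, so these counts have no background. Irak2 had 6 of the 12 entries, all in gained lists. A DOT1L peak at chr6:113644890-113645221, in intron 1 of 11 and 6588 bases from the start, shared 269 bases with a TFE3 peak and lay within an H3K27ac region whose change the authors' deposited table gives as 1.09 on the log2 scale, with an adjusted p of 0.00252. The H3K27ac signal there was 193.23 and 211.0 with MSUc, against 94.91, 76.37 and 103.53 with PBS. A second DOT1L peak at chr6:113655126-113655347, in intron 2, shared 193 bases with a TFE3 peak, and a TFEB peak lay at chr6:113661563-113661805 in the same intron. The labels list 1 TFE3 ChIP library with MSUc and 2 with PBS. The gained TFE3 peaks, here and at Irak3 below, thus rest on 1 treated library.

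At Tifa the H3K4me3 region at chr3:127789962-127791962 was among the 868 reduced regions. The authors' deposited table gives its change as -1.11 on the log2 scale with an adjusted p of 0.00304, and its signal was 77.24 and 64.12 with MSUc, against 142.0 and 159.67 with PBS. It holds the whole Tifa promoter printed above. Tifab had 2 entries, both among the 4208 reduced DOT1L peaks and both intergenic, at chr13:56162947-56163220, 15802 bases downstream of the start, and at chr13:56184362-56184635, upstream of it (distance -5613 bases). Irak3 had a gained TFE3 peak 3796 bases and a gained TFEB peak 24263 bases into the gene, both in introns, and a reduced DOT1L peak at 37924 bases. No entry named Traf6, Irak1, Irak4 or Myd88. The lists hold only selected regions, and no test was made on their signal.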

How the data were processed

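Poly-A RNA-seq TPM values were deposited by the authors after STAR and HOMER on mm10, per the submitters' processing notes, with no versions given in the sources used here. Columns summed to 528079 to 569594 TPM. The 8 genes, the marker lists and the pathway list were chosen with earlier results of these data known. Genes named by likeness were the 5 most like and 3 least like Tifab.

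Values were tested as log2(TPM + 1) with limma 3.58.1 (trend) in R 4.3.3, fitting each experiment's groups together. Genes needed 1 TPM or more in at least the number of libraries that the experiment's smallest group holds. Calls used a Benjamini-Hochberg adjusted p under 0.05, two-sided. Alternatives were a pseudocount of 0.1, no filter, median-of-ratios scaling, voom on recovered reads (at least 99.838% of values were whole within 0.15 read), the compared groups alone, a replicate block, each library left out, the 4 Tfe3KO libraries numbered 1 left out together, and replicate 3 of TfebWT with MSUc counted as PBS, as its treatment field says. No 2 libraries of a group agreed within sampling noise. The fit was tested on simulated data. Titles were followed where fields conflicted (12 Tfe3WT samples with a Tfe3KO genotype field, and 1 TfebWT MSUc sample with a PBS field), and 2 expression columns that no label matched were not used, the third silica column of the particle comparison and 1 column headed SGC and PBS. The strand setting of the counting is not given in the sources used here, and Mir5132 and Mir718 lie within Irak1. The chromatin lists hold authors' deposited log2 changes, adjusted p-values and tag-density signal per region, per the file headers. Figures used matplotlib 3.10.9.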

Additional observations from a re-analysis of the deposited data

Results flagged for a closer look

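In 2 experiments a test of the difference itself separated the MSUc responses of some genes. Between the libraries labelled Ampka1KO and Ampka1WT, the difference on the log2 scale was -1.61 for Irak2, which went opposite ways, -0.62 for Traf6 and 0.46 for Irak4. Between metformin and vehicle it was 3.39 for Tifab, 1.21 for Tifa, 0.97 for Irak3 and 0.92 for Irak4. The Irak4 value in the Ampka1 experiment did not hold with median-of-ratios scaling, at 0.17, or with voom, at 0.07. Marker sums with MSUc also differed between these groups. Macrophage markers summed to 8390 to 10500 TPM in Ampka1KO and 29300 to 35100 TPM in Ampka1WT, stromal markers to 2410 to 3040 TPM and 67.6 to 220 TPM, and neutrophil markers to 277 to 326 TPM and 10.7 to 58.9 TPM. With metformin and vehicle, macrophage markers summed to 13000 to 15500 TPM and 19300 to 22300 TPM, stromal markers to 160 to 350 TPM and 484 to 616 TPM, and neutrophil markers to 17.9 to 57.0 TPM and 41.2 to 164 TPM. Their part in these values was not tested.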

How the results depend on the processing

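Of 432 gene-level changes, median-of-ratios scaling lost 40 calls, gained 14 and turned 1 round, and voom lost 37, gained 17 and turned 2 round. Those turned round were Irak1 with MSUc in Tfe3KO, at 0.0207 with scaling and 0.0142 with voom, and Irak1 with MSUc in TfebTg, at 0.016 with voom. With voom 1 of 16 Tfeb genotype differences was called in place of 0, and 1 of 16 SGC0946 differences in place of 3, as with the compared groups alone (1). Counting replicate 3 of TfebWT with MSUc as PBS left 5 of 16 Tfeb particle calls. Leaving out 1 library gave 10 to 14 calls in the time course (12 with all), 17 to 25 (23) against PBS and 12 to 15 (14) against MSUc in the comparison of particles, and 8 to 11 particle calls (11), 8 to 11 drug calls (10) and 4 to 5 differences in response (4) with metformin. In the Ampka1 experiment it gave 16 to 16, 9 to 12 (11) and 2 to 4 (3), in the SGC0946 experiment 9 to 11, 0 to 3 and 0 to 0, in the Tfe3 experiment 45 to 47 (46), 2 to 4 (3) and 0 to 1, in the Tfeb experiment 15 to 16, 0 to 0 and 0 to 0, and in the Bhlhe experiment 22 to 24, 0 to 0 and 0 to 0. Of 104 gene-level changes in the Tfe3 experiment, leaving out the 4 Tfe3KO libraries numbered 1 lost 2 calls and gained 1.

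Replicate numbers were not used to pair the samples in the main fit. In no experiment did every same-numbered pair deviate together with r over 0.1, but that rule also counts pairs of unlike genotypes. Within Tfe3KO, r between same-numbered libraries with a particle and with PBS was 0.075 to 0.291. The Xist levels above also set the libraries numbered 1 apart across treatments in Tfe3KO and in Bhlhe40-/- and WT cells. Whether numbers mark animals there was not tested. Pairs with r over 0.1 were 16 of 30 in the Tfe3 experiment (highest r 0.291) and 6 of 14 in the Bhlhe experiment. They were 5 of 17 in the comparison of particles, 3 of 12 with metformin, 2 of 10 in the time course and 1 of 10 in the Tfeb experiment. The Ampka1 experiment had 0 of 12 and the SGC0946 experiment 0 of 10. In the time course and the Bhlhe experiment, groups of 2 libraries give the same r for both numbers. Time course r was 0.481 at 10 min, but -0.447, -0.552, -0.487 and -0.417 at 30 min, 1 h, 2 h and 5 h. Same-numbered MSUc and PBS libraries thus deviated in opposite directions from 30 min on. A fit with a replicate block lost 5 calls and gained 3, and left the time course at 13 calls; the crossed pairing, chosen after seeing the data, changed 0 of 40. The lowest Tifab levels rest on 8 to 21 reads, which limits their precision.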
